A study of Mus musculus with 4 samples.

Results

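The RNA of 10 mouse genes for leukocyte adhesion molecules and integrins was measured in cultured synovial fibroblasts. The members are the immunoglobulin-type adhesion molecules Icam1, Vcam1 and Alcam, the leukocyte integrin genes Itgal, Itgam, Itgax and Itgb2, and the integrin genes Itga4, Itgb1 and Itgav. They were taken by gene symbol, which gave 22 of the 20380 probe sets that name a single gene, for 10 of 12393 genes. Total RNA from 4 dishes was measured on 4 Affymetrix GeneChips, 1 array for each treatment. The cells came from the knee joints of naïve male DBA/1J mice aged 8 to 12 weeks and had been passaged 3 to 4 times, per the labels, which do not say whether mice were pooled. The dishes shared a medium with 1% serum and were treated for 6 h. The treatments were a vehicle control, IL-1β (5 ng/ml), the same IL-1β plus indomethacin (1 µM), and all of these plus iloprost (1 µM). Indomethacin blocks the cyclooxygenases, and iloprost activates the prostacyclin receptor, which raises cAMP. The series title names the effect of prostacyclin signalling on the activated fibroblasts as its question.

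Leukocytes stop on and crawl over other cells by pairing integrins with immunoglobulin-type ligands. An integrin is a pair of an α and a β chain. The α chains of Itgal, Itgam and Itgax pair with the β2 chain of Itgb2 on leukocytes, and the αL and αM pairs bind ICAM-1. The α4 chain of Itga4 pairs with the β1 chain of Itgb1 and binds VCAM-1. The αv chain of Itgav pairs with several β chains on fibroblasts and macrophages and binds matrix proteins such as vitronectin and fibronectin. ICAM-1 and VCAM-1 are displayed by inflamed synovial fibroblasts and endothelium, and inflammatory cytokines induce both through NF-κB in many cell types.

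The upstream sequence is shown for the member with the largest difference, Icam1, and for Itgav, whose 3 probe sets all lay on the other side in that comparison, as did the single probe sets of Itgb2 and Itgam. RefSeq (GRCm38.p6) gave a window of 300 bases for 7 of the 10 members, 250 bases before the annotated start and 50 after it. The windows shown are chr9:21015690-21015989 for Icam1 and chr2:83724147-83724446 for Itgav, both on the plus strand. Capitals mark matches, on either strand, to the interferon-activated site TTCNNNGAA, to the NF-κB variant GGAANTTCC, to TGACG, the core of cAMP-response elements, to AP-1 sites (TGACTCA or TGAGTCA) and to TATAAA. The NF-κB variant was added after the Icam1 sequence had been seen.
Icam1: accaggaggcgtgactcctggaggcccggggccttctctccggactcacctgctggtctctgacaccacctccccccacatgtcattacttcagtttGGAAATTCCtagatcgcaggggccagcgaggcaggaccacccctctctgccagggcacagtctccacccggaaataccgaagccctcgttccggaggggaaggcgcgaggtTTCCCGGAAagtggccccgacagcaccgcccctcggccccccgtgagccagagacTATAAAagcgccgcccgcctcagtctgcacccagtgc
Itgav: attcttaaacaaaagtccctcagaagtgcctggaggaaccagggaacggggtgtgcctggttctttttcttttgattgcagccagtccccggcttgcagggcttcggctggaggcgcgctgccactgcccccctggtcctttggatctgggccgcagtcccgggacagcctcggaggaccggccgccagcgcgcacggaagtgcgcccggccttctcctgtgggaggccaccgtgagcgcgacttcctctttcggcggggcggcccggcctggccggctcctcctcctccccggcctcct
In Icam1, GGAAATTCC lay at positions -153 to -145 from the annotated start and TTCCCGGAA at -42 to -34. TATAAA lay after the annotated start, at 14 to 19, and no match in this window overlaps another. The variant was held by 0.928% of 32851 RefSeq windows of the same length, TTCNNNGAA by 8.30% and TATAAA by 13.6%. The Itgav window had none of these letters in capitals. No member window held the NF-κB consensus, which 8.46% of all windows hold. TGACG was found in the windows of Alcam and Itgb1 and is held by 20.8% of all windows. The AP-1 letters were found in the Itgax window and are held by 5.2% of all windows. 2 further motifs were searched and are not capitalised. The GC box GGGCGG was found in 6 of the 7 member windows, Icam1 and Itgav among them, against 35.7% of all windows, and GAGGAA, the core of PU.1 sites, in 4 of the 7, Itgav among them and Icam1 not, against 28.3%. These matches describe letters in a window and say nothing of binding.

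Signals are linear intensities, given after scaling each array to the same median gene. Values under 37.7, the 50th percentile over the arrays, were raised to that floor, since dimmer values have no reliable order. Ratios are log2 ratios of these signals, so 1 is a 2-fold difference. With 1 array per group there is no error between dishes and no test, and every difference describes these 4 dishes. As a measure of noise within arrays, the log2 ratios of different probe sets of the same gene had an SD of 0.22 when IL-1β was set against vehicle, 0.20 for each of the indomethacin and iloprost steps, and 0.21 for iloprost with indomethacin against IL-1β alone. As deposited, without scaling, the same ratios differ by 0.23 in the IL-1β comparison, -0.15 for indomethacin against IL-1β, 0.01 for iloprost against indomethacin and -0.14 for iloprost and indomethacin against IL-1β.

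RNA of macrophage genes was present on every array beside fibroblast RNA. All 24 macrophage markers had a signal above the floor with vehicle, IL-1β and indomethacin, and 23 with iloprost. Their summed signal was 45743 in the vehicle dish, 45078 with IL-1β alone, 42688 after indomethacin and 38924 after iloprost. Of 15 fibroblast markers, 13 to 15 were above the floor on each array, with summed signals from 27539 to 29802. All 11 endothelial markers and all 10 lymphocyte markers with a probe set were at or under the floor on every array. Of 8 neutrophil markers with a probe set, 0 to 2 were above it on an array, the highest being Camp at 111 with iloprost. In such a mixture, fewer cells of a type and less RNA per cell cannot be told apart.

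Of the 22 probe sets, 14 were above the floor on all 4 arrays, 6 were at or under it on all 4 and 2 were above it with vehicle only. The 14 belong to 7 genes, Icam1, Vcam1, Alcam, Itgam, Itgb2, Itgb1 and Itgav. Itgal and Itgax had no array above the floor. Itga4 was above it on 1 array.

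**Figure D1:**
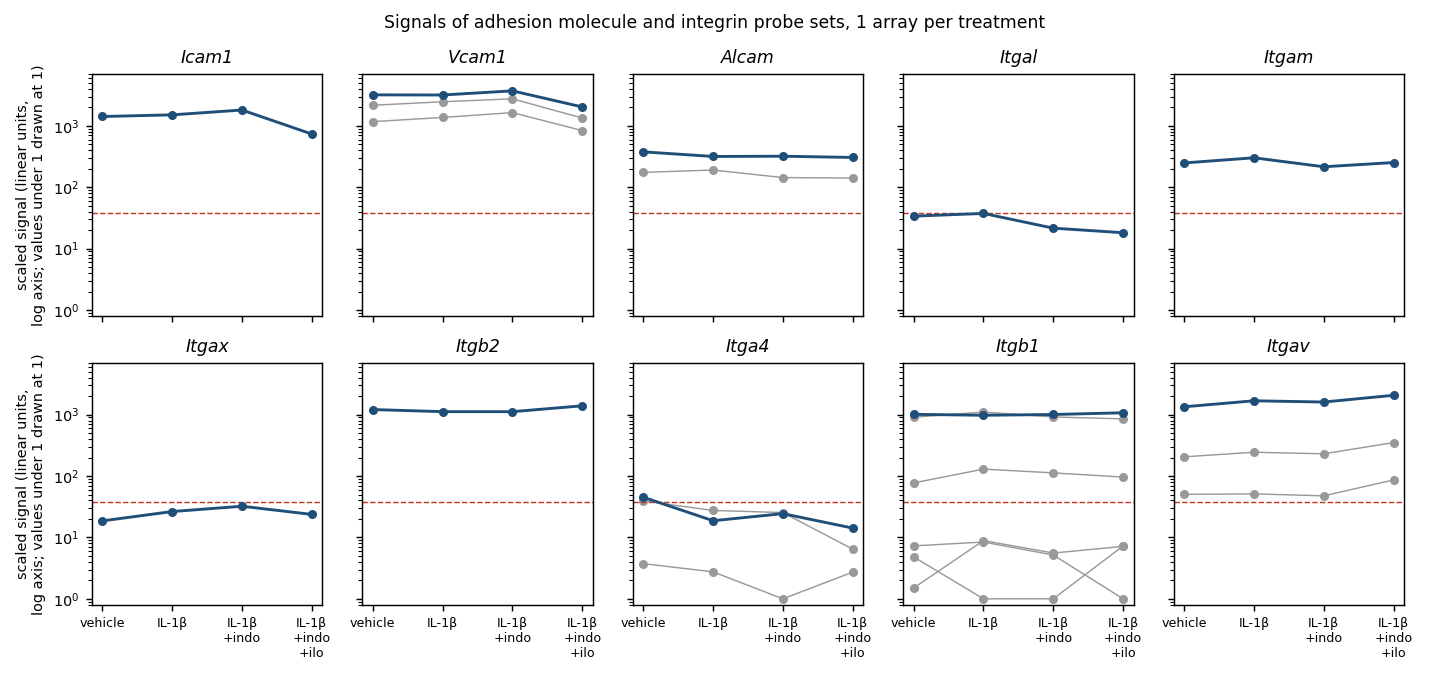
Scaled signal (log axis, linear intensity units) of every probe set of the 10 genes on the 4 arrays, 1 array per treatment (indo, indomethacin; ilo, iloprost). The blue line is the brightest probe set of a gene, grey lines are its others, and the dashed line is the floor of 37.7; Icam1 and the 3 Vcam1 probe sets are lowest with iloprost, and Itgal and Itgax stay under the floor.

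Icam1 encodes the ligand of the leukocyte integrins and was the member with the largest difference. Its signal was 1423 in the vehicle dish, 1514 after IL-1β, 1815 after IL-1β and indomethacin, and 737 when iloprost was added. The iloprost dish was the lowest of the 4 and lay under the vehicle dish. Against IL-1β and indomethacin the log2 ratio was -1.30, which is 2.46-fold lower. Of 7004 genes with a ratio in that comparison, 144 were as low or lower, or 2.06%. Against IL-1β alone it was -1.04, which fell short of 2-fold with quantile normalization, at -0.91, and against vehicle it was -0.95. IL-1β stood at 0.09 against vehicle and indomethacin at 0.26 against IL-1β. The step from vehicle to IL-1β was within the noise between probe sets, and its sign changed with quantile normalization, to -0.02. Icam1 has a single usable probe set, so no other probe set bears on these values.

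Vcam1 encodes the ligand of α4β1 and was measured by 3 probe sets. The brightest had signals of 3205 with vehicle, 3190 with IL-1β, 3723 after indomethacin and 2037 after iloprost. The other probe sets read 2169, 2476, 2761 and 1343, and 1174, 1373, 1647 and 838, in the same order of treatments. In all 3 the iloprost dish was lowest and the indomethacin dish highest. The log2 ratio of iloprost against indomethacin was -0.87, -1.04 and -0.97, so only 1 of 3 probe sets passed 2-fold, and the gene, which is counted by its brightest, did not. Of the 7004 genes, 281 were as low as the brightest Vcam1 probe set or lower, or 4.01%. Against IL-1β alone the ratios were -0.65, -0.88 and -0.71, and against vehicle -0.65, -0.69 and -0.49. The indomethacin ratios against IL-1β were 0.22, 0.16 and 0.26, and those of IL-1β against vehicle -0.01, 0.19 and 0.23. Icam1 and Vcam1 thus had their highest signal in the same dish and their lowest in the same dish.

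The lower Icam1 and Vcam1 signals with iloprost came with lower signals for most macrophage markers. In that comparison 20 of the 24 macrophage markers were below 0, with a median of -0.28, where the median over all genes was 0.04. Fcgr1, which encodes an Fc receptor, was the only macrophage marker past 2-fold, at -1.46. That is 1 of 24 markers, beside 3.21% of 7004 genes that were lower by 2-fold or more. The leukocyte phosphatase gene Ptprc was at -0.32. Lyz2, Csf1r and Cd68 stood at -0.09, -0.07 and -0.11. The 4 markers above 0 were Fcgr3 at 0.79, Cd14 at 0.62, Laptm5 at 0.05 and Tyrobp at 0.04. The fibroblast markers had a median of 0.09. The part of the macrophage RNA in the Icam1 and Vcam1 values was not tested. All endothelial markers were at or under the floor in every dish.

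Alcam encodes an adhesion molecule that binds CD6 on T cells. Its brightest probe set had signals of 378 with vehicle, 318 with IL-1β, 321 after indomethacin and 306 after iloprost. The second read 175, 191, 144 and 141. The probe sets differed on IL-1β, at -0.25 and 0.13, and on indomethacin, at 0.01 and -0.41. Both were close to 0 for iloprost against indomethacin, at -0.07 and -0.03, beside -1.30 for Icam1. Against vehicle, the iloprost dish stood at -0.30 and -0.31.

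The β2 chain gene Itgb2 and the αM chain gene Itgam, which together make the complement receptor Mac-1, were the measured leukocyte integrin genes. Itgb2 had signals of 1210.4 with vehicle, 1119 with IL-1β, 1118 after indomethacin and 1393 after iloprost, and the iloprost dish was the highest. Its log2 ratio was -0.11 in the IL-1β comparison, 0.00 for indomethacin and 0.32 for iloprost against indomethacin. Under the alternatives in processing the last ranged from 0.31 to 0.43. Of 7004 genes with a ratio for iloprost against indomethacin, 1407 were as high as Itgb2 or higher, or 20.1%. Itgam had signals of 249 with vehicle, 303 with IL-1β, 216 after indomethacin and 253 after iloprost. Its ratios were 0.28 for IL-1β against vehicle, -0.49 for indomethacin against IL-1β and 0.23 for iloprost against indomethacin. The indomethacin value is the lowest of the 7 members measured in that comparison. Against IL-1β and indomethacin, the iloprost ratios of both genes lay above 0 while 20 of the 24 macrophage markers lay below it. Against IL-1β alone, Itgb2 was at 0.32 but Itgam at -0.26, on the same side as 22 of the 24 markers. Each gene rests on 1 probe set.

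Itgal, the αL chain of the T-cell integrin LFA-1, had signals of 33.9, 37.5, 21.6 and 18.2 with vehicle, IL-1β, indomethacin and iloprost. Itgax, the αX chain found on dendritic cells and some macrophages, had 18.6, 26.4, 32.2 and 23.7. These values lie under the floor and have no order. The lymphocyte markers with a probe set were likewise at or under the floor, with summed signals from 25.1 to 42.3. Among dendritic cell markers 1 of 7 was above the floor, the lectin gene Cd207, which read 479 with iloprost and between 41.6 and 61.2 otherwise.

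Itga4 and Itgb1 encode the chains of the VCAM-1 receptor. The brightest Itga4 probe set read 45.2 with vehicle, 18.7 with IL-1β, 24.4 after indomethacin and 14.2 after iloprost. Only the vehicle value was above the floor, so the ratio of each other dish to vehicle is a bound of at most -0.26. A second probe set gave 39.3 with vehicle and at most 27.5 elsewhere, a bound of at most -0.06, and the third was under the floor throughout. Itga4 passed the floor only through the vehicle dish.

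Itgb1 had 6 probe sets, of which 3 were above the floor on all arrays and 3 were under it on all. The brightest read 1012 with vehicle, 977 with IL-1β, 1006 after indomethacin and 1073 after iloprost, a spread of 0.13 on the log2 scale. A second read 908, 1102, 916 and 854, and the dimmest of the 3 read 77.3, 129.6, 113 and 96.2. They disagreed on IL-1β against vehicle, at -0.05, 0.28 and 0.75. For iloprost against indomethacin they were at 0.09, -0.10 and -0.23. No direction is given for Itgb1.

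Itgav had 3 probe sets, all highest with iloprost. The brightest read 1343 with vehicle, 1682 with IL-1β, 1606 after indomethacin and 2066 after iloprost. The others read 206, 244, 230.3 and 351, and 50.2, 51.2, 47.6 and 86.4. For iloprost against indomethacin the log2 ratios were 0.36, 0.61 and 0.86, and the dimmest probe set, which is nearest to the floor, had the largest. Against vehicle the iloprost dish stood at 0.62, 0.77 and 0.78. IL-1β against vehicle was at 0.32, 0.25 and 0.03, and indomethacin at -0.07, -0.08 and -0.10. No probe set passed 2-fold. Itgav, unlike Icam1 and Vcam1, was higher with iloprost than in the other dishes. For iloprost against indomethacin, 1182 of 7004 genes were as high as its brightest probe set or higher, or 16.9%.

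**Figure D2:**
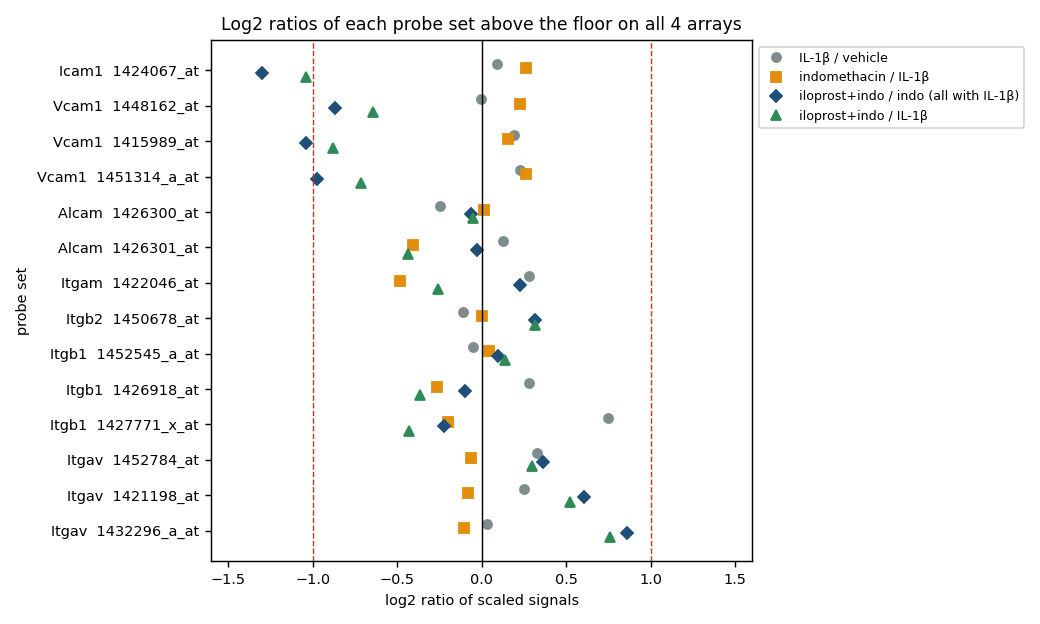
Log2 ratio of scaled signals for the 14 probe sets above the floor on all 4 arrays, in the 4 comparisons, with 1 array per treatment and therefore no error bars; dashed lines mark 2-fold. Icam1 at -1.30 and the Vcam1 probe sets at -0.87, -1.04 and -0.97 (blue diamonds, iloprost added) lie left of 0, and the Itgav probe sets at 0.36, 0.61 and 0.86 lie right of it.

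Counted by comparison, few members passed 2-fold. With IL-1β against vehicle, 8 of the 10 genes had a ratio, and 0 were at least 2-fold higher and 0 lower, beside 1.77% and 0.519% of 6935 genes. Of the 8, Itga4 has only a bound of at most -0.26 and entered through the vehicle dish alone. The other 7 were above the floor on both arrays and ran from -0.25 to 0.32, with a median of -0.01, against -0.01 for all genes above it on both. With indomethacin against IL-1β, 7 had a ratio and 0 passed in either direction, beside 0.248% higher and 0.672% lower of 6846 genes, with a median of 0.01. With iloprost against indomethacin, 1 of 7, Icam1, was at least 2-fold lower and 0 were higher, beside 3.21% and 1.98% of 7004 genes, with a median of 0.09 against 0.04 for all genes. With iloprost and indomethacin against IL-1β alone, 1 of 7, again Icam1, was lower and 0 higher, beside 2.45% and 0.887% of 6986 genes, with a median of -0.05 against 0.03. That count was 0 with quantile normalization, where Icam1 stood at -0.91, and 3 with a floor at the 35th percentile. These comparisons share arrays, so they are not independent. The counts of 1 rest on Icam1 alone, and Vcam1 fell short of 2-fold on its brightest probe set.

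**Figure D3:**
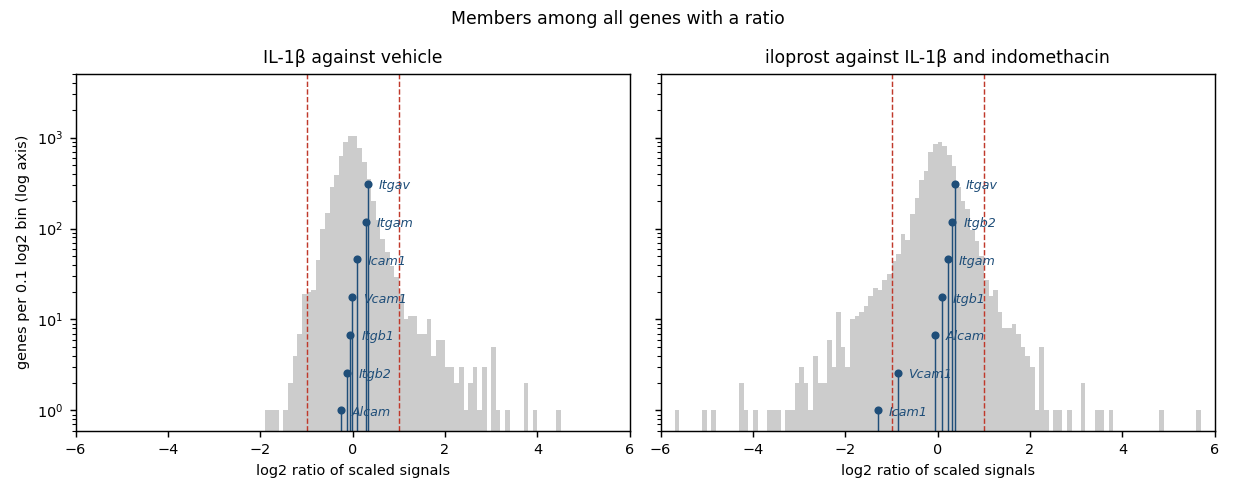
Histogram of the log2 ratios of all genes with a ratio (6935 and 7004 genes; log axis for gene numbers), with the 7 members above the floor on both arrays marked by blue pins whose height only separates the labels. With IL-1β against vehicle all 7 lie between -0.25 and 0.32, and with iloprost Icam1 and Vcam1 lie in the lower tail; dashed lines mark 2-fold.

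The genes whose signals most resembled Icam1 over the 4 arrays were found by the distance of their log2 signals after centring each gene on its mean. Among 6225 other genes above the floor on every array, the nearest were Sla, an adaptor of antigen receptor signalling in blood cells, at 0.08, the organic anion transporter gene Slco3a1 at 0.10, the schlafen gene Slfn2 at 0.14, the scaffold gene Cask at 0.17 and Spryd7 at 0.17. Sla read 234 with vehicle, 268 with IL-1β, 316 after indomethacin and 129 after iloprost. Their iloprost ratios against indomethacin ran from -1.31 to -1.08, beside -1.30 for Icam1. Placed in the same ranking, Vcam1 stood at 38, with a distance of 0.34, and Itgav at 5444. The ranking rests on 4 arrays.

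**Figure D4:**
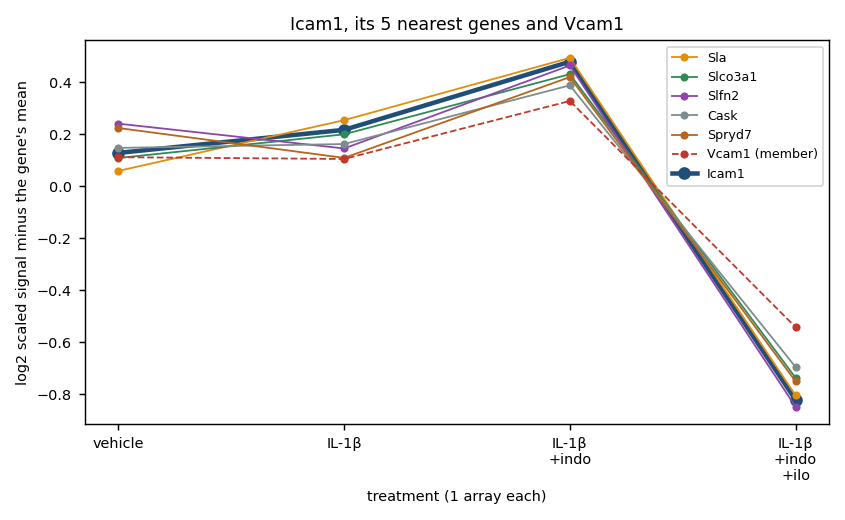
Log2 scaled signal of Icam1, its 5 nearest genes and Vcam1 in the 4 dishes, 1 array each, after subtracting each gene's mean over the arrays. The 7 lines are highest with indomethacin and lowest with iloprost, and Vcam1 has the smallest drop, -0.87.

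Other genes of leukocyte adhesion were taken from a list of 35, of which 32 had a probe set and 15 had a ratio in each comparison. With iloprost against indomethacin 0 of 15 were at least 2-fold higher and 1 was lower, Cd48, a ligand of the CD2 family on blood cells, beside 1.98% higher and 3.21% lower of all genes. Cd48 read 323 with vehicle, 276 with IL-1β, 265 after indomethacin and 61.2 after iloprost, a log2 ratio of -2.11 against indomethacin. The membrane-bound chemokine gene Cx3cl1 read 383, 653, 709.9 and 394, and its ratio of -0.85 did not pass 2-fold. The hyaluronan receptor gene Cd44 was at -0.23 and the selectin ligand gene Selplg at -0.26. The list median was -0.23, against 0.04 for all genes, with 10 of 15 below 0. With IL-1β, 1 of 15 was at least 2-fold higher, beside 1.77% of all genes, the nectin-like receptor gene Pvr, which read 96.5 with vehicle and 287 with IL-1β, at 1.57. The endothelial selectin genes Sele and Selp, Icam2 and Madcam1 were at or under the floor on all arrays. With indomethacin 0 of 15 passed 2-fold, beside 0.248% higher and 0.672% lower of all genes.

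Of 20 other integrin subunit genes, 15 had a probe set and 9 of these were at or under the floor on every array. No subunit passed 2-fold in any of the 4 comparisons, with 4 to 6 ratios in each. Over all genes, 0.248% to 3.21% passed in a given direction, so so few ratios say little. The fibronectin receptor α5 gene Itga5 read 360.0 with vehicle, 324 with IL-1β, 380.1 after indomethacin and 223 after iloprost, a ratio of -0.77 for iloprost against indomethacin. The laminin receptor α6 gene Itga6 read 173, 183, 175 and 126, at -0.47. The αv partner gene Itgb5 read 681, 604, 600.3 and 609, at 0.02, beside 0.36 for Itgav. Itgb3, another αv partner, was above the floor only with iloprost, at 41.0.

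Among the ligands of integrins in matrix and fluid, 19 of 27 genes had a ratio in each comparison. With IL-1β 1 was at least 2-fold higher, beside 1.77% of all genes, the tenascin gene Tnc, at 401 with vehicle and 1252 with IL-1β, a ratio of 1.64. None passed 2-fold with indomethacin, beside 0.248% higher and 0.672% lower of all genes. None passed with iloprost, beside 1.98% higher and 3.21% lower of all genes against indomethacin. The list medians were 0.03 with indomethacin against IL-1β and 0.03 with iloprost against indomethacin, against 0.00 and 0.04 for all genes. The nearest to 2-fold with iloprost against indomethacin were Edil3, an αv ligand that restrains leukocyte adhesion, at 0.92 (105 and 199), and Ccn1, a matricellular αv ligand, at -0.95 (796 and 412). Fibronectin, Fn1, ranged only from 4487 to 5059 over the 4 arrays.

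The proteins that activate integrins inside the cell and tie them to actin gave 31 to 33 ratios for 42 genes. With iloprost against indomethacin 2 of 31 were at least 2-fold higher and 1 lower, beside 1.98% and 3.21% of all genes, with a median of -0.13 against 0.04. Cytip, a cytohesin-binding protein that dampens β2 integrin adhesion, read 28.0 with vehicle, 109 with IL-1β, 31.6 after indomethacin and 1890 after iloprost, a ratio of at least 5.65. The adaptor gene Lims2 was at 1.48 (45.0 and 125), and its relative Lims1 at -0.98 (520.4 and 263). Ptk2b, a kinase active downstream of β2 integrins, was at -1.75 (134 and 39.9). The β2 integrin activator gene Fermt3, kindlin-3, was at 0.15, beside 0.32 for Itgb2. With IL-1β, Cytip at a bound of at least 1.53 and Cyth1 at 1.08 passed 2-fold, 2 of 33 beside 1.77% higher of all genes. With indomethacin Cytip was lower, at most -1.53, 1 of 32 beside 0.672% lower of all genes. Tln1, the talin that switches integrins on, stayed within -0.40 and -0.01 in the 4 comparisons.

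**Figure D5:**
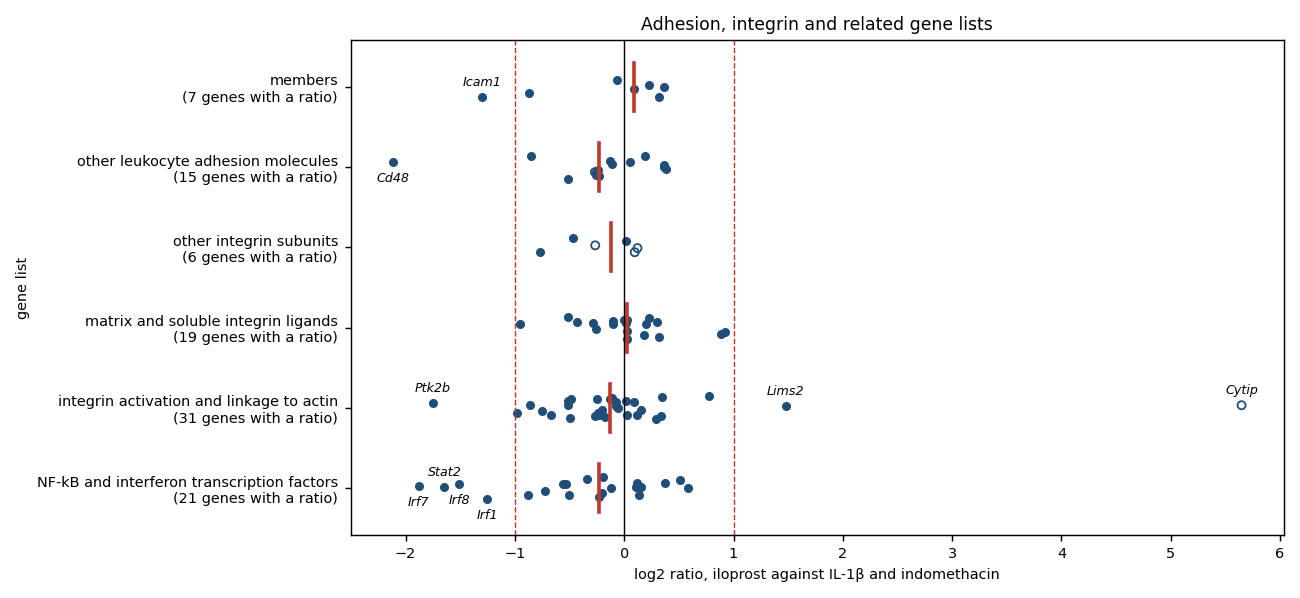
Log2 ratio of iloprost against IL-1β and indomethacin, 1 array each, for the members and 5 lists of related genes, 1 point per gene, with vertical position jittered within a list. Open circles are bounds (1 array at the floor), red bars are list medians, dashed lines mark 2-fold, and genes past 2-fold are named, from Cd48 at -2.11 to Cytip at 5.65 or more.

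Transcription factors and feedback genes of NF-κB and interferon signalling, whose sites are known in the ICAM1 promoter, were listed beside Icam1. Of 24 genes 21 had a ratio in each comparison. With iloprost against indomethacin 4 of 21 were at least 2-fold lower and 0 higher, beside 3.21% and 1.98% of all genes, with a median of -0.23 against 0.04. These were the interferon regulatory genes Irf7 at -1.88, Irf8 at -1.51 and Irf1 at -1.25, and Stat2 at -1.64. Irf1 read 647 with vehicle, 306 with IL-1β, 514 after indomethacin and 216 after iloprost. The NF-κB subunit gene Rela was at -0.34, the inhibitor gene Nfkbia at -0.20 and the feedback gene Tnfaip3 at -0.88. With IL-1β against vehicle, Nfkbiz was at 1.46 (357 and 983) and Irf1 at -1.08, and these were the only genes of the list past 2-fold, 1 of 21 each way beside 1.77% higher and 0.519% lower of all genes. With indomethacin against IL-1β 0 of 21 passed, beside 0.248% higher and 0.672% lower of all genes, and Irf1 was the highest at 0.75.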

How the data were processed

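Expression was measured on 4 single-colour Affymetrix arrays, 1 per treatment. The deposited values are linear intensity signals, 1 per probe set and array. Labelling and hybridisation followed the standard Affymetrix protocol, per the labels. How probes were summarised, background-corrected and scaled is not given here. The medians of the arrays as deposited ran from 35.2 to 40.6. The number of arrays limits the precision.

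Of 22690 probe sets, 1606 are unnamed here, 691 name several genes and were not used, and 13 further control probe sets with a name were left out, which left 20380. The other 51 of the 64 controls are among the unnamed. Names come from GEO's platform annotation. Each array was scaled so that the median log2 signal of 6222 genes above the 50th percentile on every array was equal. A floor at the 50th percentile was then set and log2 taken. Each gene was represented by its brightest probe set (mean log2 signal). A pair of arrays both at the floor gives no ratio, and a pair with 1 at the floor gives a bound. A call is a 2-fold difference, with no test. The steps were run on simulated arrays in which bright genes were changed by more than 2-fold, so calls near 2-fold and dim genes were not tested. Alternatives were no scaling, quantile normalization, floors at the 35th and 65th percentiles, log2(signal + 16) without a floor, and the mean of a gene's probe sets. Python 3.11.15, numpy 2.4.6 and pandas 2.3.3 were used.

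The members and gene lists were chosen with earlier results of these data known. Some genes are on more than 1 list. Named genes were all 10 members with every probe set, the 5 nearest genes of a member past 2-fold that was above the floor on every array, and up to 4 genes past 2-fold per list and comparison. Other genes of the lists, and values that missed 2-fold, were named after their values were seen.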

Additional observations from a re-analysis of the deposited data

How the results depend on the processing

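No paired analysis was possible because each treatment has 1 array, and no array could be left out. For iloprost against indomethacin, Icam1 was the only member at least 2-fold lower in the processing used here. It stayed past 2-fold under all 6 alternatives, from -1.30 to -1.25. The other floors and the mean of probe sets could not change its ratio, since Icam1 has 1 probe set, far above the floor. Vcam1 ran from -0.96 to -0.81. For iloprost and indomethacin against IL-1β alone, the count of members at least 2-fold lower was 1 in the processing used here, 0 with quantile normalization and 3 with a 35th-percentile floor, where Itgal and Itga4, dim genes, joined Icam1. Icam1 itself ran from -1.18 to -0.91 there. The other 6 counts of members were 0 in the processing used here and stayed 0 under each alternative. Of 173 member ratios recomputed, 13 moved by more than the SD between probe sets. These include all 7 members above the floor on both arrays for IL-1β against vehicle, without scaling. Counted by gene, only Icam1 had ratios past 2-fold, and these kept their sign. Some smaller ratios changed sign, with IL-1β those of Icam1, Vcam1, Itgb2 and Itgb1. With indomethacin those of Alcam, Itgb2 and Itgb1 did. With iloprost, Itgb1 did against indomethacin, and Alcam and Itgb1 against IL-1β alone. As deposited, genes at least 2-fold higher among all genes past 2-fold with IL-1β were 94.7%, against 77.4% after scaling, and with indomethacin 13.0%, against 27.0%. The counts of all genes past 2-fold with IL-1β were 123 higher and 36 lower after scaling, and 195 and 11 as deposited. A 35th-percentile floor gave 190 and 96, and a 65th-percentile floor 89 and 14. For iloprost against indomethacin they were 139 and 225 after scaling, 271 and 287 with the lower of these floors and 79 and 174 with the higher. Signal over background limits Itgal, Itgax and Itga4, and dish-to-dish error is unknown for every value.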

Other observations

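A group of related genes was highest with IL-1β and indomethacin, as Icam1 and Vcam1 were. They were picked after their values were seen, and their indomethacin and iloprost ratios share the indomethacin array. Cyth3, a cytohesin that acts on small GTPases at the membrane, read 286 with vehicle, 366 with IL-1β, 688 after indomethacin and 378 after iloprost. Ccn1, a matricellular integrin ligand, read 393, 481, 796 and 412 in that order. The related gene Ccn2 read 2323, 2455, 3235 and 2271. In each of Cyth3, Ccn1 and Ccn2, the other 3 dishes lay closer to each other than to the indomethacin dish. Icam1 and Vcam1 differ in this, since the iloprost dish stood furthest from the rest. Their indomethacin ratios against IL-1β were only 0.26 and 0.22.

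The mucin-type gene Pdpn, podoplanin, a marker of lining fibroblasts that binds a platelet and leukocyte lectin, read 682 with vehicle, 1172 with IL-1β, 917 after indomethacin and 1824 after iloprost. Its iloprost ratio against indomethacin was 0.99, just under 2-fold.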
